A study of Mus musculus with 32 samples.

Results

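The 7 NMDA receptor subunit genes of the mouse, *Grin1*, *Grin2a*, *Grin2b*, *Grin2c*, *Grin2d*, *Grin3a* and *Grin3b*, were followed in the dendrites and the soma of single neurons. They were picked by name from a table of reads on the 3′UTRs of 44081 genes and from files of exon reads on 23453 genes, and all 7 were present in both. A further table of reads on 74532 separate 3′ ends held 19 ends of these genes. The neurons came from the hippocampus of C57BL/6 mice at embryonic day 18 and were kept in culture for 15 days without a treatment or an engineered allele. From each of 16 neurons the dendrites and the soma were aspirated into separate tubes, which gave 16 dendrite and 16 soma libraries paired by neuron. Neurons 1 to 4 had 3 rounds of aRNA amplification, an in vitro transcription method for very small amounts of RNA, and the other 12 had 2 rounds. ERCC spike-in RNA, diluted 1 in 4000000, was added to the tubes of neurons 3 to 16 by the labels and to none of neurons 1 and 2. The 16 neurons came from several cultures on several days, which the labels do not assign to neurons.

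NMDA receptors are glutamate-gated cation channels that pass calcium when glutamate binds while the membrane is depolarised, and they are known for starting synaptic plasticity in the hippocampus. Each receptor is a tetramer that holds the obligatory GluN1 subunit, encoded by *Grin1*, together with GluN2 subunits, which bind glutamate, or GluN3 subunits, which bind glycine. GluN2A and GluN2B, from *Grin2a* and *Grin2b*, are the main GluN2 subunits of forebrain neurons and differ in channel kinetics. GluN2C, from *Grin2c*, is known mainly from the cerebellum, and GluN2D, from *Grin2d*, from interneurons and early development. GluN3A, from *Grin3a*, lowers calcium permeability and is highest in juvenile brain, and GluN3B, from *Grin3b*, is best known from motor neurons. The question for each gene was whether its RNA was seen in dendrites, how much of it relative to the soma of the same cell, and in which 3′ form.

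Reads on 3′UTRs ranged from 646521 to 6954420 in the dendrite libraries and from 925525 to 21169974 in the soma libraries. Mitochondrially encoded genes took 2.39% to 35.8% of these reads in dendrites and 0.277% to 8.12% in somas. The libraries were checked against marker lists, each of 5 genes, by the sum of the normalized reads of a list, where normalized reads are 3′UTR reads divided by the DESeq2 size factor of the library. Pan-neuronal markers summed to 6231 to 19572 in dendrites and 8033 to 21654 in somas. GABAergic markers, such as *Gad1* and *Gad2*, which make GABA, summed to 4435 to 20840 in dendrites (median 9017) and 5609 to 54231 in somas (median 25700). Glutamatergic markers, such as *Slc17a7*, a vesicular glutamate transporter, summed to 3.38 to 1685 in dendrites (median 489) and 0.485 to 9635 in somas (median 111). The GABAergic sum was the higher in 16 of 16 dendrites and in 15 of 16 somas. The exception was the soma of neuron 2, with 9635 on the glutamatergic and 5609 on the GABAergic list, while its dendrites had 213 and 14717. The label of the samples, hippocampal neuron, names no neuron type, and the values below are those of cells whose libraries carried mostly GABAergic markers. Astrocyte, microglia and oligodendrocyte lists had medians of 95.9, 2.33 and 39.4 in dendrites and 37.1, 0.466 and 15.8 in somas, and the highest library sums were 1171, 1229 and 513 in dendrites. *Gfap*, *Aldh1l1*, *Cx3cr1*, *P2ry12*, *Csf1r*, *C1qa*, *Aif1*, *Mog* and *Mag* had a median of 0 reads in both compartments, whereas *Slc1a3*, an astrocyte glutamate transporter, had medians of 13 reads in dendrites and 18 in somas, *Aqp4* and *Gja1* had 3.5 and 2 in dendrites, and *Cnp* had 5 in somas. The part of other cells in the subunit values was not tested. Fewer copies of an RNA and less RNA per compartment cannot be told apart from sequencing reads alone, which is why a spike-in scaling is given beside the main one.

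*Grin1* lies on the minus strand of chromosome 2 at 25291181 to 25319187 (GRCm38, GENCODE, as for all positions here), with annotated 3′UTRs of 882 to 1190 nt. At least 1 read on its 3′UTR was found in 15 of 16 dendrites and 16 of 16 somas, and at least 10 reads in 11 and 14. In dendrites it had 0 to 544 normalized reads with a median of 46.1, and in somas 3.83 to 491 with a median of 120. The 2 ranges overlapped almost fully, and the dendrites were the higher side in 6 of the 16 neurons. Neuron 2 had 96.6 in its dendrites and 3.83 in its soma, and neuron 15 had 10.1 and 491. The log2 fold change of dendrites over soma was −0.80 (SE 1.03, edgeR adjusted p = 0.589), so a difference between compartments was not shown.

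*Grin2a* lies on the minus strand of chromosome 16 at 9567898 to 9995560, with an annotated 3′UTR of up to 9932 nt. It was read in all 16 somas and in 14 of 16 dendrites, and had at least 10 reads in 16 and 13. It was the most deeply read subunit in somas, with 191 to 1969 normalized reads and a median of 1195. Dendrites had 0 to 507 with a median of 350. All but 3 neurons were higher in the soma, and those 3, neurons 2, 6 and 7, were the ones with the lowest soma values, 215, 203 and 191 normalized reads. The dendrites of neurons 10 and 15 had 0 reads while their somas had 1445 and 1436 normalized reads. The log2 fold change was −2.13 (SE 0.85, edgeR p = 0.0154, adjusted p = 0.0956), a 0.228-fold dendrite level that missed the threshold of an adjusted p of 0.05.

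*Grin2b* lies on the minus strand of chromosome 6 at 135713233 to 136173511, and its annotated 3′UTR, the longest of the family, reaches 18868 nt. It was read in 15 of 16 dendrites and 16 of 16 somas, with at least 10 reads in 11 and 16. Dendrites had 0 to 632 normalized reads with a median of 133, and somas 14.7 to 1429 with a median of 237. Dendrites were the higher side in 4 neurons, numbers 2, 7, 10 and 14. In neuron 10 the dendrites had 632 and the soma 217, and in neuron 16 the dendrites had 1.45 and the soma 395. The log2 fold change was −1.35 (SE 0.97, edgeR adjusted p = 0.324).

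*Grin2c*, on the minus strand of chromosome 11 at 115249169 to 115267243, had 0 reads on its 3′UTR in every library. Over all dendrites this was 0 of 33415509 reads, which allows up to 0.0898 CPM (reads per 1000000 3′UTR reads), and over all somas 0 of 116931842, which allows up to 0.0257 (3 reads of the total, for counting error alone). The exon files held 3 *Grin2c* reads in all dendrites and 4 in all somas. *Grin3b*, on the plus strand of chromosome 10 at 79970715 to 79977190, had a single read in each of 2 dendrites and 1 to 4 reads in 7 somas. Neither gene had a read in enough libraries, at least 16, to enter the comparison of compartments.

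*Grin2d* lies on the minus strand of chromosome 7 at 45831883 to 45878378, where the antisense gene *Gm45441* overlaps its 3′ end. It was read in 6 of 16 dendrites and 10 of 16 somas, with at least 10 reads in 3 and 7. Dendrites had 0 to 122 normalized reads with a median of 0, and somas 0 to 115 with a median of 2.81. In the 4 neurons of 3 rounds it never passed 2 reads. Among the other neurons, the somas of neurons 9, 10, 14 and 16 had 115, 78.8, 58.9 and 68.4, with 3.57, 0, 0 and 0 in their dendrites, while neuron 7 had 6.21 in its soma and 122 in its dendrites. The log2 fold change was −2.74 (SE 1.79, edgeR adjusted p = 0.280), the widest error of the members tested.

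*Grin3a* lies on the minus strand of chromosome 4 at 49661611 to 49845744, with an annotated 3′UTR of 3618 nt. It was the member read in all 16 dendrites, with 0.328 to 1501 normalized reads and a median of 82.5. In somas it had 0 to 2252 with a median of 235, and 2 somas, of neurons 4 and 15, had 0 reads. The somas fell far apart. In neurons 5, 6, 8, 9, 13 and 16 they held 929 to 2252, whereas in neurons 1, 3, 4, 7, 11, 14 and 15 they held 0 to 17.2. Dendrites were the higher side in 9 of the 16 neurons, and these included all 7 neurons with the low soma values just given, neuron 11 on a single read in each compartment. Neurons 6 and 10 had 1439 and 1501 in dendrites against 929 and 329 in the soma, and neuron 13 had 2.58 against 2252. The log2 fold change was 0.74 (SE 0.96, edgeR adjusted p = 0.590). The sign of this value differs from that of the medians: the fit compares the compartments within neurons, and the medians do not.

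**Figure D1:**
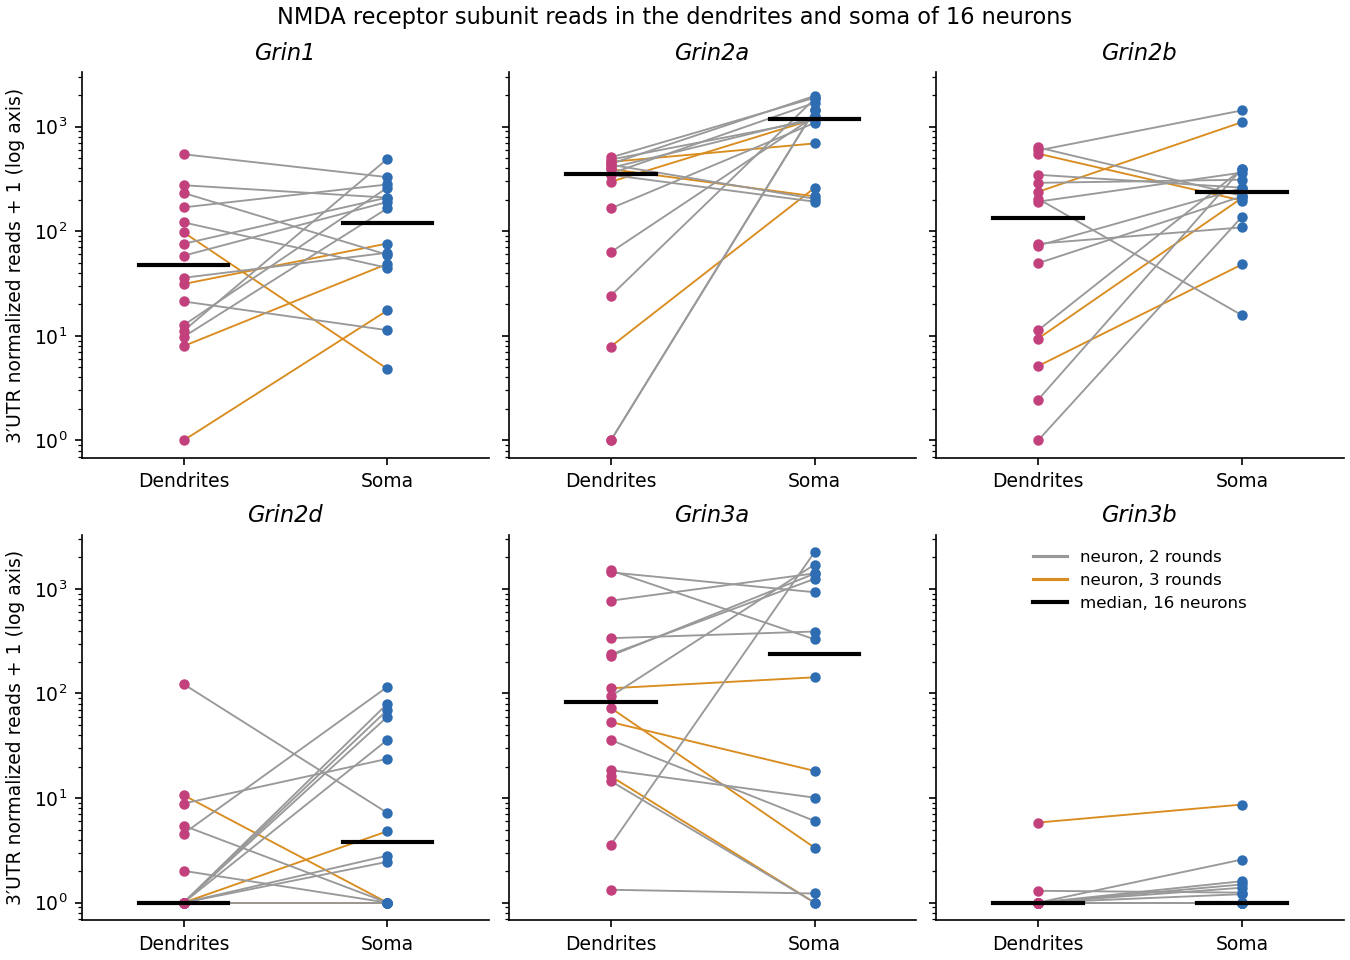
Normalized 3′UTR reads plus 1 on a log axis for 6 subunit genes in the dendrites and soma of each of 16 neurons, joined by a line per neuron (grey for 2 rounds of amplification, orange for 3), with the median as a black bar. *Grin2a* is high in every soma, from 191 to 1969 normalized reads, while *Grin3a* somas run from 0 to 2252; *Grin2c* is left out because it had 0 reads.

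Of the 7 genes, 5 entered the edgeR fit of 10880 genes, and 0 of the 5 were called at an adjusted p of at most 0.05. At an unadjusted p under 0.05 there was 1, *Grin2a*, lower in dendrites, a direction in which 26.7% of all genes tested passed that limit. At an adjusted p of at most 0.05, 0.827% of all genes tested passed with the dendrite side higher and 5.71% with the soma side higher. The median gene had a log2 fold change of −1.49, so most RNAs were below their soma level in dendrites on this scale. Set against that median, *Grin3a* stood 2.23 higher, *Grin1* 0.69 higher and *Grin2b* 0.14 higher on the log2 scale, and *Grin2a* and *Grin2d* stood −0.64 and −1.24 from it. With the dendrite libraries rescaled to the median gene, *Grin1* and *Grin2b* turned to 0.69 and 0.13, and 0 members were called. Without neuron 2, whose soma carried the glutamatergic markers, 0 of the 5 were called as well, with *Grin1* at −1.07, *Grin2a* at −2.38 (edgeR adjusted p = 0.0694), *Grin2b* at −1.59, *Grin2d* at −3.52 and *Grin3a* at 0.87.

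With DESeq2 in the same paired layout, 2 of the 5 members were called, both lower in dendrites. *Grin2a* had a log2 fold change of −2.45 (SE 0.66, DESeq2 adjusted p = 0.000947) and *Grin2b* one of −1.67 (SE 0.63, DESeq2 adjusted p = 0.0193). In that fit 46.2% of all genes were called higher in somas, so a call in this direction was common. *Grin1* had −1.07 (DESeq2 adjusted p = 0.122) and *Grin3a* 0.54 (DESeq2 adjusted p = 0.537).

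Scaling by the ERCC spike-ins, which refers each gene to a fixed amount of added RNA, was possible in neurons 3 to 16. On this scale the median gene had a log2 fold change of −3.97, and 62.9% of 10537 genes were called higher in somas. *Grin1* (−3.28, SE 1.52, edgeR adjusted p = 0.0494), *Grin2a* (−4.48, SE 1.19, adjusted p = 0.00182), *Grin2b* (−3.53, SE 1.40, adjusted p = 0.0236) and *Grin2d* (−5.45, SE 2.28, adjusted p = 0.0312) were all called lower in dendrites. *Grin3a* had −1.36 (SE 1.29, edgeR adjusted p = 0.331), with the opposite sign to the value on the main scale. In the same 14 neurons with TMM scaling 0 of the 5 were called, and *Grin3a* had 0.72. Of the 10537 genes in that fit, 803 passed with the soma side higher and 103 with the dendrite side higher. Relative to the median gene, the members had the same order on the 2 scales. With spike-ins it ran from *Grin3a* (2.62 above the median gene) through *Grin1* (0.69), *Grin2b* (0.44) and *Grin2a* (−0.50) to *Grin2d* (−1.48). The 2 scales were applied to the same counts, and a scaling factor moves all genes of a library together. The shared order was thus close to fixed and is not a second result.

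**Figure D2:**
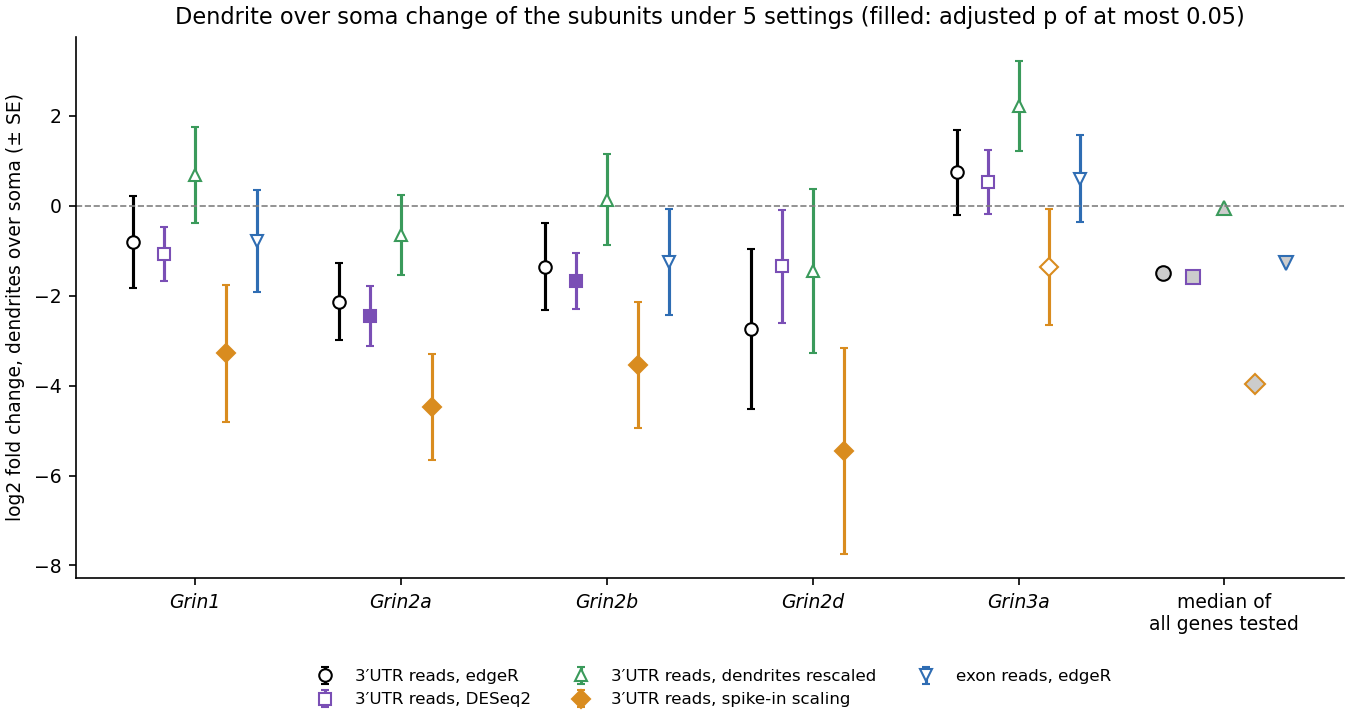
Log2 fold change of dendrites over soma with its SE for the 5 subunit genes tested, under 5 settings marked by colour and shape, with filled symbols for an adjusted p of at most 0.05 and grey symbols for the median of all genes tested. The spike-in values lie lowest for each gene, around a median gene of −3.97, and *Grin3a* is the highest member in every setting drawn.

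Exon reads gave a second count of the same libraries. In that fit of 9804 genes, 1% passed an adjusted p of at most 0.05 with the dendrite side higher and 2.62% with the soma side higher. The median was −1.28. *Grin1* had a log2 fold change of −0.78 (SE 1.13, edgeR adjusted p = 0.669), *Grin2b* one of −1.25 (SE 1.18, adjusted p = 0.496) and *Grin3a* one of 0.60 (SE 0.97, adjusted p = 0.709), and 0 of these 3 had an unadjusted p under 0.05. DESeq2 on the exon reads called *Grin2b*, at −1.80 (SE 0.69, adjusted p = 0.0215), in a fit that called 46.5% of all genes higher in somas. Spike-in scaling of the exon reads called *Grin1* and *Grin2b* lower in dendrites, where it called 64.4% of all genes so. *Grin2a* and *Grin2d* were read on exons in too few libraries to be tested.

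For *Grin2a* this was not for lack of 3′UTR reads. All dendrites together held 4519 reads on its 3′UTR and all somas 60990, but the exon files held 33 and 237. Exon reads were therefore 0.412% of its 3′UTR reads, against a median of 101% over the 10880 genes tested, and the 500-nt windows at its 3 annotated 3′ ends held 1.36% of them, against a median of 95.5%. Most *Grin2a* reads were thus counted on the 3′UTR region that the authors built from several annotations and in neither the end windows nor the exon files. An exception was the dendrite library of neuron 13, with 168 of 171 reads in the end windows. Exon reads of this gene came in a few libraries, 106 in the soma and 24 in the dendrites of neuron 7 and 118 in the soma of neuron 13. In the soma of neuron 9, with 13687 3′UTR reads, there was 1 exon read.

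*Grin2d* showed a related gap, with exon reads at 1.18% of its 3′UTR reads, but 99.7% of the latter lay in the end windows. *Grin2b* and *Grin3a* lay in between, with 52.8% and 50.8% of 3′UTR reads in end windows. Exon reads of *Grin2b* came to 60.4% of its 3′UTR reads and those of *Grin3a* to 99.3%. For *Grin1* the shares were 99.1% and 103%, near those of the median gene. Single libraries could differ widely: the dendrites of neuron 10 held 432 *Grin2b* reads on the 3′UTR and 0 on exons, and those of neuron 14 held 217 and 585.

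**Figure D3:**
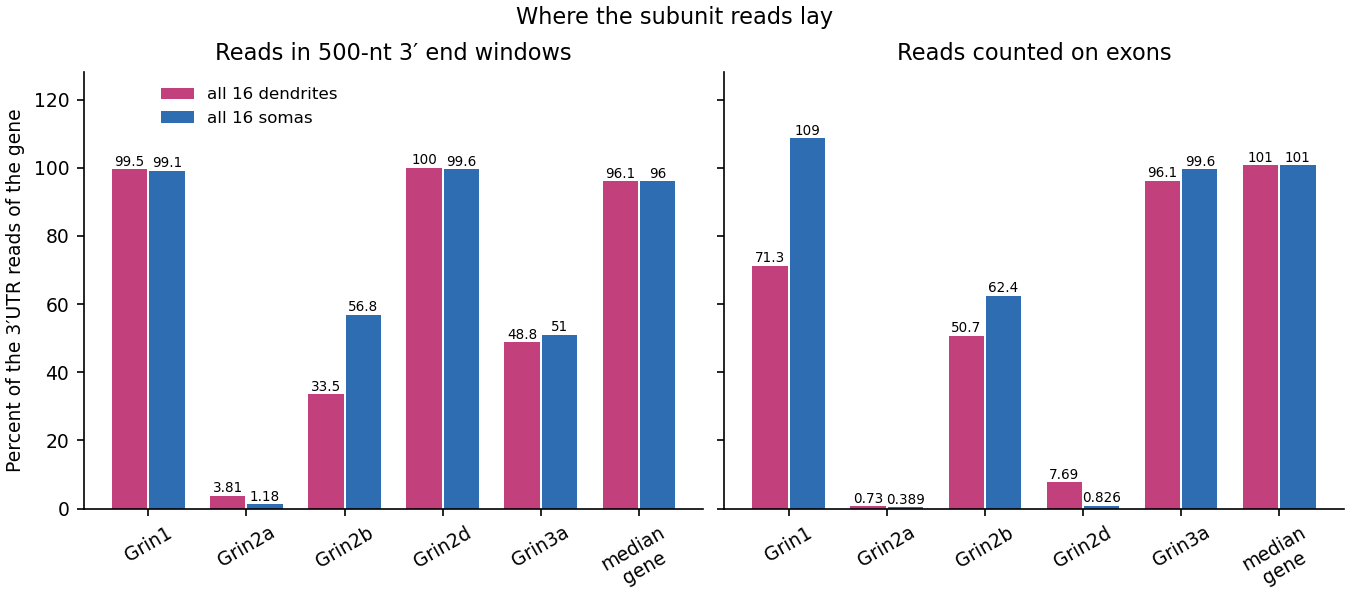
Reads in the 500-nt 3′ end windows (left) and reads on exons (right) as a percent of the 3′UTR reads of each gene, summed over 16 dendrites (pink) or 16 somas (blue), with the median over 10880 genes at the right of each panel. *Grin2a* stands near 0 in both panels, and *Grin2d* is near 0 on exons alone.

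Levels of different subunits were compared per length, as CPM per kilobase of the annotated 3′UTR. On 3′UTR reads the soma medians ran from *Grin2a* (45.0) and *Grin1* (40.6) through *Grin3a* (24.7) and *Grin2b* (4.69) to *Grin2d* (0.947), with *Grin3b* and *Grin2c* at 0. In dendrites the order was *Grin1* (17.5), *Grin2a* (13.1), *Grin3a* (9.32) and *Grin2b* (2.54), with the rest at 0. Apart from *Grin2c*, the ranges over libraries of neighbours in these orders overlapped, in somas for instance 0.908 to 161 for *Grin1* and 6.09 to 74.0 for *Grin2a*. Exon reads per kilobase of annotated exon gave another order, with soma medians of 7.37 for *Grin3a*, 5.33 for *Grin1*, 2.36 for *Grin2b* and 0.0054 for *Grin2a*, and dendrite medians of 2.86, 1.86, 1.14 and 0. The lengths are those of GENCODE and not of the authors' regions. The paper states that most reads lay within 500 nt of a 3′ end, so reads need not grow with 3′UTR length. Division by length lowers *Grin2b* (19555 nt) against *Grin1* (1190 nt). Without it their medians were 237 and 120 normalized reads in somas, and 133 and 46.1 in dendrites. The orders above are thus per length, and an order of RNA amounts was not shown.

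Presence of a gene in nearly every dendrite was a further measure of the study. *Grin1*, *Grin2b* and *Grin3a* had a read in at least 15 of the 16 dendrites, 3 of the 7 members, and 5.99% of the 31102 genes with any read did so. With each pair of libraries sampled to equal numbers of 3′UTR reads, somas with a *Grin3a* read went from 14 to 12. Dendrites with a read were again 15, 15 and 16. The dendrite library was the deeper of the pair only in neuron 12, so sampling could lower dendrite reads in that neuron alone. The dendrite counts are thus not a test of detection at equal depth. On exon reads *Grin1* was found in 13 dendrites, *Grin2b* in 14 and *Grin3a* in 12, so 0 of the 7 reached 15. The share of all genes that reached 15 on exon reads is not given here, so this count has no comparison. The dendrites of neuron 15 had the least of the family, 14 reads of *Grin1* and *Grin3a* together and 0 of the other members.

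The composition of the family in a library had the larger SD in dendrites for each of the 4 most read members. Dendrite shares rested on 14 to 3414 subunit reads and soma shares on 147 to 32663. The part of these lower counts in the larger SD was not tested. As a share of all subunit reads on 3′UTRs, *Grin2a* took 15.8% to 79.7% in somas (median 55.2%) and 0% to 89.5% in dendrites (median 34.3%). *Grin3a* took 0% to 72.4% in somas (median 17.5%) and 0.0634% to 95.5% in dendrites (median 14.4%). *Grin2a* was the member with most reads in 12 of 16 somas and in 7 of 16 dendrites, and in dendrites *Grin3a* led in 5, *Grin2b* in 3 and *Grin1* in 1.

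The balance of *Grin2a* and *Grin2b* was compared within neurons as the *Grin2b* share of the reads of both. In the 14 neurons with at least 10 such reads on each side, the share was 1.80% to 100% in dendrites with a median of 32.7%, and 7.17% to 56.8% in somas with a median of 17.4%. The means were 37.4% ± 32.6 and 24.9% ± 15.6 (SD, n = 14), and the difference was 12.5 ± 32.2 percentage points (p = 0.185, two-sided exact permutation test by sign flips). Dendrites had the higher share in 8 neurons and somas in 6, so a shift was not shown. The widest gaps were in neuron 10, with 100% in dendrites and 13.1% in the soma, and neuron 14, with 84.8% and 17.2%. In the neurons of 2 rounds the difference was 17.3 ± 34.4 (SD, n = 11, exact permutation p = 0.134) and in those of 3 rounds −4.77 ± 16.1 (SD, n = 3, not tested). On exon reads, with few *Grin2a* reads, the shares were 95.7% and 91.6% in 9 neurons (exact permutation p = 0.203), so the level of this ratio depends on the region counted.

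The 3′ end table separates ends that lie at least 500 nt apart. Ends are called here by their number in the table, since it gives no positions and the distal end of a pair was not identified. *Grin1* had 5 ends, of which end 1 held 1222 of the reads in dendrites and 9329 in somas. End 4 had 484 reads in all dendrites, 442 of them from neuron 9, where end 1 took 51.6% of the reads of the pair, while the soma of that cell had 1641 reads on end 1 and 0 on end 4. In 9 neurons with at least 10 reads on ends 1 and 4 on both sides, end 1 took 88.5% ± 18.0 in dendrites and 92.9% ± 17.2 in somas (SD, n = 9, exact signed-rank test, p = 0.688). The soma of neuron 7 was the lowest soma, with 71 reads on end 1 and 76 on end 4.

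*Grin2b* used ends 1 and 2 at similar levels, with 422 and 459 reads in all dendrites and 3963 and 3078 in all somas. In the 11 neurons with enough reads, end 1 took 52.4% ± 45.4 in dendrites and 54.3% ± 25.1 in somas (SD, n = 11, exact signed-rank test, p = 0.898). The means were close, but in single dendrites the reads of this pair often lay on one end alone. End 1 was at 100% in the dendrites of neurons 9, 10 and 11 and at 0% in those of neurons 6, 12 and 14. The somas of these 6 cells had 10.8% to 51.5%. In some of these dendrites few *Grin2b* 3′UTR reads lay in an end window. Windows held 48 of 972 reads in neuron 9, 48 of 432 in neuron 10, 74 of 148 in neuron 11 and 10 of 217 in neuron 14. In neurons 6 and 12 they held 26 of 28 and 187 of 188. The end of the reads outside the windows is not known. For *Grin3a* the reads lay on end 1, with 1571 reads in dendrites, 0 on end 2 and 4 on end 3, and in somas 18764, 537 and 21, with 536 of the 537 from a single library. The 5 neurons with enough reads had 100% of the pair of ends 1 and 3 on end 1 on both sides, which leaves no difference to test. Over 3522 genes, 8.4% had a p under 0.1, the threshold of the study for this test, and *Grin1* and *Grin2b* did not. With a minimum of 5 reads in place of 10, *Grin1* did, on ends 1 and 3 (−18.4 points, exact signed-rank p = 0.0391, n = 13).

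**Figure D4:**
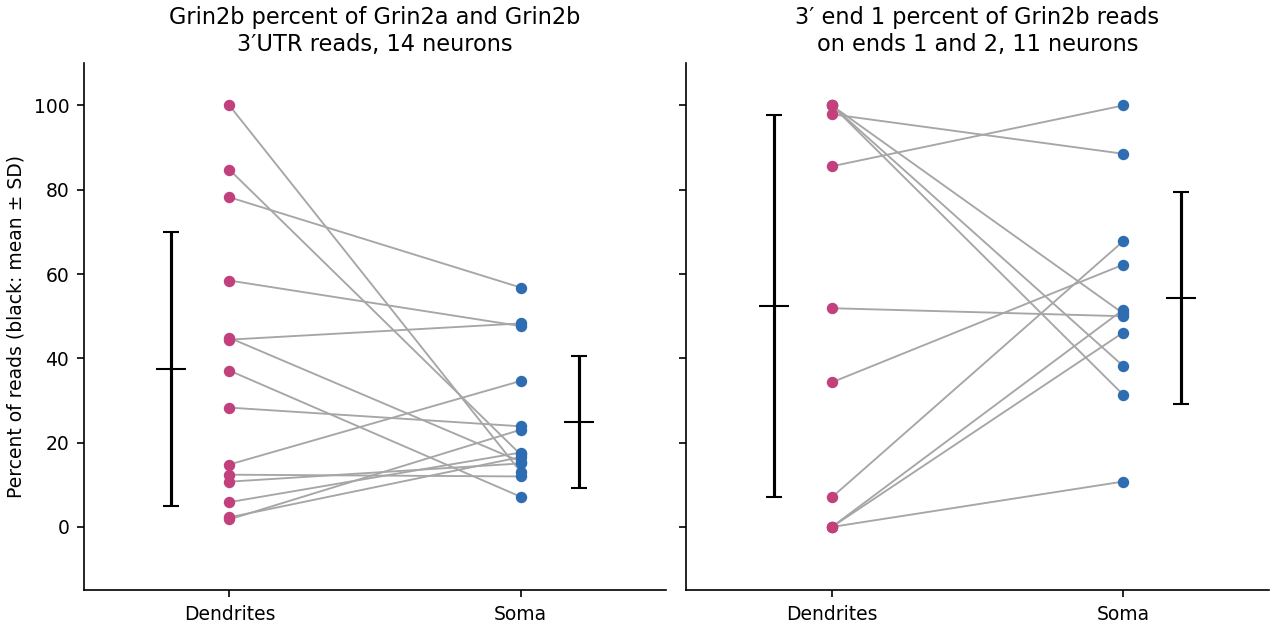
Left, percent of *Grin2a* and *Grin2b* 3′UTR reads that were *Grin2b*, in 14 neurons; right, percent of *Grin2b* reads on ends 1 and 2 that lay on end 1, in 11 neurons, each with dendrites (pink) and soma (blue) of a neuron joined and the mean ± SD in black. In the right panel 6 dendrites lie at 0% or 100%, and the means of 52.4% and 54.3% hide this spread.

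The dendritic read fraction, the part of the normalized reads of a neuron found in its dendrites, was taken in neurons with at least 10 normalized reads of a gene. Its median was 32.5% for *Grin1* (0% to 96.2%, 16 neurons), 19.2% for *Grin2a* (0% to 67.9%, 16 neurons) and 25.6% for *Grin2b* (0% to 93.2%, 16 neurons). For *Grin3a* it was 60.8% (0.114% to 100%, 15 neurons), and for *Grin2d* it was 0% (0% to 95.2%, 7 neurons). Over 12677 genes with at least 5 neurons the median was 25.4%. The variance of the fraction between neurons was 0.0547 for *Grin2a*, 0.0868 for *Grin2b*, 0.0945 for *Grin1* and 0.124 for *Grin3a*, beside a median of 0.115 over all genes. *Grin2a* was thus the least variable of the members and *Grin3a* lay near the median gene.

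The neurons amplified in 3 rounds had lower soma levels of several members. The soma median of *Grin1* was 32.1 normalized reads in these 4 neurons and 199 in the 12 with 2 rounds, that of *Grin2a* was 475 and 1344, and that of *Grin3a* was 9.77 and 660. Dendrite medians were 18.6 and 66.1, 344 and 350, and 62.0 and 161. The dendrite over soma change was tested for a difference between the 2 groups of neurons by an interaction term. In this edgeR fit 0 of 5 members had an unadjusted p under 0.05, the lowest being that of *Grin3a* (difference of log2 fold changes 3.55, SE 2.28, p = 0.126, adjusted p = 1), and 0 of all genes were called, with 288 at an unadjusted p under 0.05. Within the groups *Grin3a* had a log2 fold change of −0.057 (SE 1.48) in 2 rounds and 3.56 (SE 2.36) in 3 rounds, and *Grin2a* had −2.53 (SE 1.05) and −0.98 (SE 1.10).

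Across the 32 libraries the members were related to each other to differing degrees (Spearman correlation of log2(CPM + 1), on 3′UTR reads; libraries share neurons and differ in depth). The highest value was that of *Grin1* and *Grin2a*, 0.61 over all libraries, 0.85 over the 16 somas and 0.52 over the 16 dendrites. *Grin2a* and *Grin2b* had 0.35 over all libraries, and *Grin1* and *Grin3a* had 0.00. The genes most like each member were also listed. For *Grin2a* these included *Syngr3*, a synaptic vesicle protein (0.83), and *Dner* (0.83). For *Grin1* they were *Prr14* (0.79), *Ptprs*, a receptor phosphatase (0.77), and *Syt11* (0.77). *Grin3a* was most like *Rasd2* (0.74), *Nrsn1* (0.69) and *Cacna2d1*, a calcium channel subunit (0.68). *Grin2b* had *Zfp322a* (0.69), *Gtl3* (0.67) and *Atp2b1*, a plasma membrane calcium pump (0.66), and *Grin2d* had *Tle2* (0.79), *Srrm3* (0.71) and *Sidt2* (0.71), where *Tle2* and *Grin2d* were both at 0 in 13 libraries.

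Genes that act with the receptor were taken as a list of 67 in 8 roles, of which 61 entered the 3′UTR fit. Their median log2 fold change was −0.71, beside −1.49 over all genes, and 44 of the 61 lay above the median gene. Of the 61, 1 was called in edgeR, *Dapk1*, with the soma higher, beside 5.71% of all genes. With the dendrites higher 0 were called, beside 0.827% of all genes. Before adjustment, p was under 0.05 for 1 of the 61 with the dendrites higher, beside 3.55% of all genes, and for 6 with the soma higher, beside 26.7% of all genes. In the exon fit 58 were tested with a median of −0.47, and 0 were called; before adjustment p was under 0.05 for 1 with the dendrites higher and 2 with the soma higher, beside 3.88% and 20.4% of all genes. DESeq2 called 19 of the 61 on 3′UTR reads, 18 of them higher in somas, beside 46.2% of all genes called in that direction.

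*Dapk1*, a death-associated kinase known to bind GluN2B, had 0 to 415 normalized reads in dendrites with a median of 0, and 0 to 120 in somas with a median of 38.5. A single dendrite library, that of neuron 10, held the value of 415. Its log2 fold change was −5.77 (SE 1.73, edgeR adjusted p = 0.0370). The call held without neuron 1, 2, 5, 7, 8 or 10 in turn, 6 of the 16, and was lost without any single one of the other 10, with adjusted p from 0.0216 to 0.0975. On exon reads it had −2.30 (SE 1.61, edgeR adjusted p = 0.354).

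Among the PDZ scaffolds and adaptors, which anchor GluN2 tails in the postsynaptic density, 16 of 16 were tested, 0 were called and the median was −0.18, the highest of the roles, and 0.14 on exon reads, where it was also the highest. The one with most reads was *Dlgap1*, with 783 to 10939 normalized reads in dendrites (median 2059) and 714 to 5502 in somas (median 1466). Its log2 fold change was 0.73 (SE 0.43, edgeR adjusted p = 0.236). The kinases had 14 tested and a median of −1.04, and *Camk2b*, a subunit of the kinase that docks on GluN2B, was the most read, with a log2 fold change of −0.12 (SE 0.71, edgeR adjusted p = 0.916). Phosphatases had 6 tested, a median of −0.98 and 0 called, with *Ppp3ca*, a catalytic calcineurin subunit, at −0.18 (SE 0.49, edgeR adjusted p = 0.809). *Ppp3cb*, another catalytic calcineurin subunit, had −3.33 (SE 1.22, edgeR adjusted p = 0.0756), and −0.91 on exon reads (SE 0.71, edgeR adjusted p = 0.409).

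Calmodulin, which binds GluN1, and alpha-actinin genes had 6 tested and a median of −0.90. *Calm2* was the most read gene of this role, with 0 to 10475 normalized reads in dendrites (median 3323) and 3697 to 18090 in somas (median 9749). Its log2 fold change was −1.34 (SE 0.45, edgeR adjusted p = 0.0568). Co-agonist supply had 3 of 5 genes tested and the lowest median on 3′UTR reads, −2.44, though on exon reads it had −0.40 with 2 tested, and the lowest there was −1.25, for surface partners. *Srr*, which makes D-serine, had 2.93 to 1930 normalized reads in dendrites (median 569) and 22.3 to 913 in somas (median 290), with a log2 fold change of 0.48 (SE 0.73, edgeR adjusted p = 0.653). Ras, Rac and nitric oxide signalling (5 tested, median −1.11, with *Kalrn* at −1.79), transport and endocytosis (7 tested, median −0.50, with *Ap2m1* at −0.50) and surface partners (4 tested, median −0.53, with *Nlgn1* at −0.40) had 0 called.

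**Figure D5:**
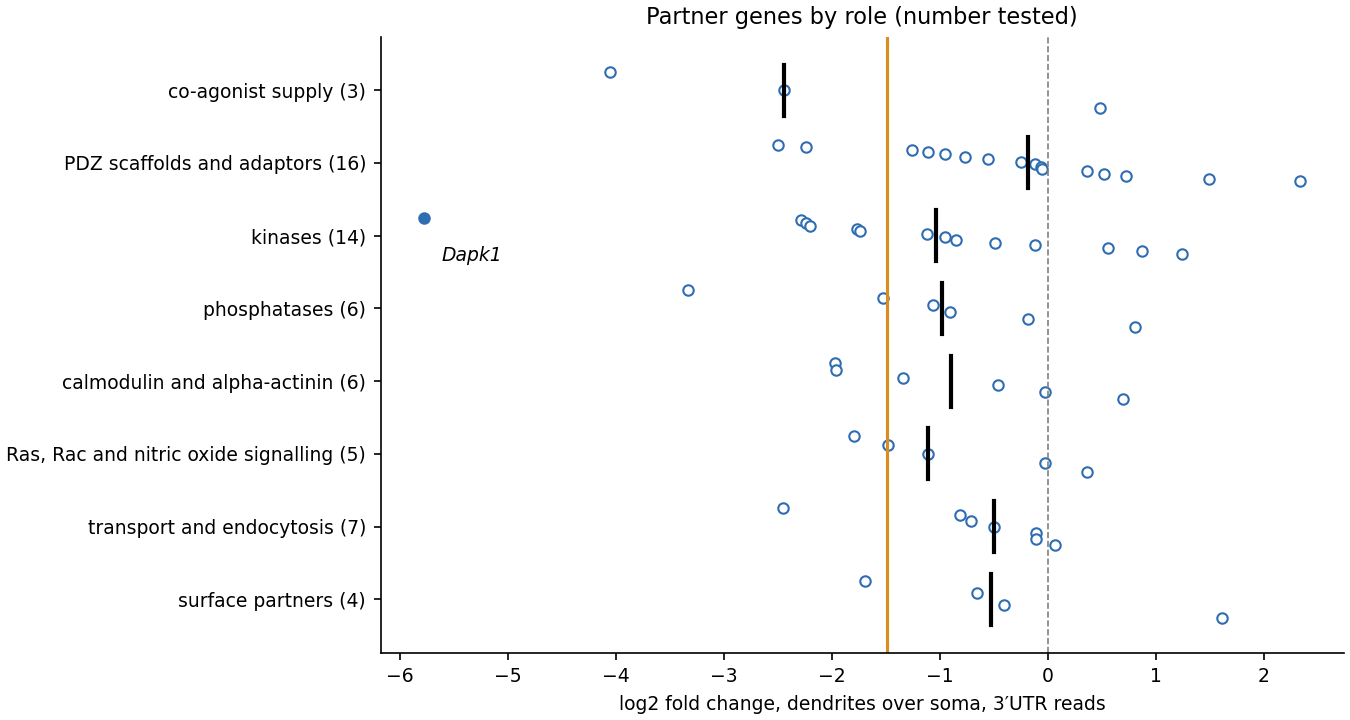
Log2 fold change of dendrites over soma on 3′UTR reads (edgeR) for 61 partner genes in 8 roles, with the median of each role as a black bar and the median of all genes tested, −1.49, as an orange line. *Dapk1*, the filled point at −5.77, is the gene called, and the PDZ scaffolds and adaptors have the highest median, −0.18.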

How the data were processed

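Dendrite and soma RNA of single neurons, amplified with aRNA, was sequenced from stranded libraries. The authors trimmed adapters and poly-A, mapped reads to mm10 with STAR (version 2.4.0 in the submitters' processing notes) and used VERSE to count reads that mapped uniquely. Every deposited file holds raw read counts: reads on the union of the 3′UTRs of a gene, built from Ensembl, UCSC and published 3′UTRs, reads in a 500-nt window at each 3′ end, and reads on exons and 92 ERCC spike-ins. The annotation of the exon counts is not given in the sources used here. Reads carry no molecular identifiers, so limits from a count of 0 cover counting error alone. Depth per library is given with the results, and the precision of a comparison comes from the spread between neurons.

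Genes read in 16 or more of the 32 libraries were compared with edgeR 4.0.16 (TMM, robust quasi-likelihood fit, neuron as a block, Benjamini-Hochberg adjusted p of at most 0.05 over all genes tested) in R 4.3.3; SE is the size of the log2 fold change over the square root of F. DESeq2 1.42.0 gave size factors and an alternative. Shares used the exact sign-flip permutation test and 3′ ends the exact signed-rank test, both two-sided over neurons, in Python 3.11.15 with NumPy 2.4.6, pandas 2.3.3 and SciPy 1.17.1. The end table holds no positions, so the share of the lower-numbered of the top 2 ends was tested in place of a distal fraction, which leaves p as it is. Both steps were tested on simulated data. Library pairs with identical counts numbered 0.

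Pairing comes from the cells: both compartments were taken from one neuron. Deviations from the compartment means correlated at 0.0887 ± 0.0772 (SD, n = 16) between compartments of a neuron and −0.00559 ± 0.0526 (SD, n = 240) between neurons. Neurons may share a culture, so p-values measure the spread between cells.

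The members, the partner and marker lists and the tests were chosen with earlier results of these data known. Named genes are the members, partner genes called on 3′UTR counts, the partner with the highest mean normalized reads in each role, the 3 genes most correlated with each member, and markers; 1 gene that this rule named is not reported here. No sequences are shown. Alternatives covered scaling, filters, the test, the block, amplification rounds, read minimums, exon counts and leaving out each neuron. The TMM fit in neurons 3 to 16 and the exon fit of the rounds were added after seeing the data.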

Additional observations from a re-analysis of the deposited data

How the results depend on the processing

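The calls depended on the test and the scaling. Members called on 3′UTR counts numbered 0 in the main edgeR fit, 2 with DESeq2 and 4 with spike-in scaling, and on exon counts 0, 1 and 2. With spike-ins the exon values were −3.65 for *Grin1* (edgeR adjusted p = 0.0314) and −3.95 for *Grin2b* (adjusted p = 0.0301). Log2 fold changes that turned sign were *Grin1* and *Grin2b* with dendrites rescaled to the median gene (0.69 and 0.13 on 3′UTR counts, 0.49 and 0.019 on exon counts), and *Grin3a* with spike-ins (−1.36 and −1.93) and in the neurons of 2 rounds (−0.057 and −0.20). *Grin3a* thus had a positive value or a negative one depending on the neurons and the scaling, with adjusted p never under the threshold. Leaving out each neuron in turn turned no log2 fold change and gave 0 calls among the members that could be fitted (*Grin2d* could not without neuron 7, 9 or 11), with *Grin2a* from −2.39 to −1.60 (adjusted p 0.0694 to 0.225), *Grin2d* from −3.52 to −1.84, *Grin3a* from 0.43 to 1.34 and *Grin1* from −1.07 to −0.25. On exon counts *Grin3a* ran from 0.00020, without neuron 7, to 0.94.

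Without the replicate block, which drops the pairing by neuron, 0 members were called, *Grin3a* went to −0.81 on 3′UTR counts and −0.23 on exon counts, and *Grin2b* on exon counts to 0.040. The median gene moved from −1.49 to −0.22 on 3′UTR counts in that fit. Among the filters, with every gene that had a read 0 members were called (31102 genes tested, median −0.17, *Grin2a* adjusted p = 0.158), and with at least 10 reads in at least 16 libraries 0 as well (7109 genes, *Grin2a* adjusted p = 0.186, *Grin2d* not tested). Whole-table counts moved more: genes called higher in dendrites numbered 90 and in somas 621 in the main fit, 548 and 92 after rescaling, 15 and 143 without the filter and 157 and 77 without the block.

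The *Grin2b* share of *Grin2a* and *Grin2b* reads differed by 6.82 to 15.1 percentage points without each neuron and by −4.77 in the 3 neurons of 3 rounds, too few for a test. In the 3′ end test with at least 5 reads, 1 member passed, and the share of all genes passing at that minimum is not given here. The top ends of *Grin1* became 1 and 3, and end 1 had an 18.4-point lower share in dendrites (−18.4, exact signed-rank p = 0.0391, n = 13). At 20 reads the *Grin1* difference, on ends 1 and 4, was −14.8 (exact signed-rank p = 0.125, n = 7). The *Grin2b* difference of −1.86 turned to 0.828 at 5 reads and 2.63 at 20 reads. Without each neuron it ran from −8.91 to 4.02 and that of *Grin1* from −11.4 to 1.10, the last without neuron 9. On exon counts 0 members had a read in at least 15 dendrites. Partner genes called numbered 1 in the main fit, 19 with DESeq2 and 5 after rescaling, those 5 all higher in dendrites. Rescaling moved the median gene from −1.49 to −0.046, and 548 of 10880 genes were called in that direction. Partner genes called numbered 0 on exon counts, without the block or in the neurons of 2 rounds. The cause of these changes was not tested. *Grin2c* and *Grin3b*, with at most 4 reads in a library on 3′UTRs, were not tested in the main fit, so a difference between compartments was not detectable for them at this depth.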
